A study of Mus musculus with 27 samples.

Results

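Hearts under pressure load from mice given JQ1 were compared with hearts under the same load from mice given vehicle at day 11, gene by gene. The 6 arrays compared, 3 per treatment, were taken by their labels out of 27 arrays, and all 19937 genes with a probe set of their own were tested. Every mouse of the series was a male C57Bl/6J littermate aged 10 to 12 weeks. JQ1 TAC hearts had undergone transverse aortic constriction (TAC), a surgical narrowing of the aortic arch that left a pressure gradient of about 50 mmHg, and the mice received JQ1. Vehicle TAC hearts had the same surgery and dmso vehicle. In both groups injections started 1.5 days after surgery, and the groups compared differ in the drug by design. The labels give no load measured heart by heart. Sham vehicle hearts of day 11, 3 arrays, had sham surgery and the dmso vehicle, and they give the level without pressure load. JQ1 was given here only to TAC mice, so an action of the drug in an unloaded heart was not measured. Each array holds RNA from a 10 to 20 mg piece of whole heart tissue.

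BET proteins are readers of acetylated histones that help recruit the kinase P-TEFb, which releases paused RNA polymerase II into elongation, and JQ1 is a small molecule that occupies their bromodomains and displaces them from chromatin. In a heart under pressure load the cardiomyocytes enlarge and take up a fetal-type gene programme, fibroblasts lay down matrix, monocyte-derived macrophages accumulate and the genes of fat oxidation recede. The comparison asks which of those gene programmes differ when BET proteins are inhibited during the load.

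Values are log2 levels, and a difference is JQ1 minus vehicle on the log2 scale, given with its standard error (SE) from a fit over all 27 arrays. A gene was called when its adjusted p (limma, Benjamini-Hochberg over all genes) was under 0.05. The labels do not say whether the 3 arrays of a group come from 3 animals, so p-values measure the spread between these samples, which may be technical. Array medians of the 6 arrays lay between 6.954 and 7.0197, and the median difference over all genes was −0.05.

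At day 11, 3180 genes were called, which is 16.0% of those tested. Higher calls numbered 1500 (7.52%) and lower calls 1680 (8.43%), but the large differences were mostly falls: 425 genes (2.13%) were lower by 1.5-fold or more and 155 (0.777%) were higher by as much. For 7239 genes (36.3%) the 3 arrays of JQ1 TAC hearts did not overlap the 3 arrays of vehicle TAC hearts. The split of the calls moved with scaling. Centring each array at its own median moves the median difference to 0.022, and 2334 genes were then called higher and 1099 lower, so that 68% of the calls were higher against 47.2% on the deposited scale. Small differences near 0.2 are therefore read below against the median of all genes.

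**Figure D1:**
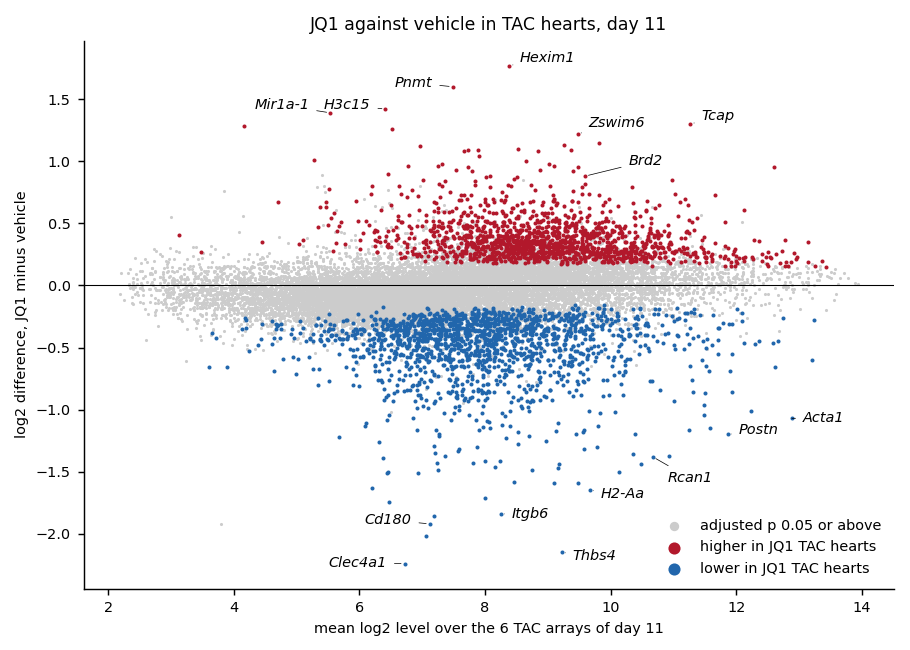
Each point is one of 19937 genes. The horizontal axis is the mean log2 level over the 6 TAC arrays of day 11 and the vertical axis the log2 difference, JQ1 minus vehicle. Red and blue mark called genes. Falls reach −2.24 (Clec4a1) while the largest rise is 1.77 (Hexim1).

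Hexim1, whose protein holds P-TEFb in an inactive complex with 7SK RNA, had the largest rise of all called genes. It had log2 levels of 9.39, 9.30 and 9.10 in JQ1 TAC hearts, against 7.50, 7.44 and 7.55 in vehicle TAC hearts and 7.59, 7.32 and 7.40 in sham vehicle hearts. The JQ1 arrays stood apart from both other groups, which overlapped each other. The difference was 1.77 ± 0.12 (SE), or 3.41-fold (adjusted p = 1.2e-08). TAC by itself moved Hexim1 by 0.06 (adjusted p = 0.867).

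Of 24 measured genes of the BET and P-TEFb machinery, 7 were higher and 2 lower, with a median of 0.08. Brd2, a BET protein, had levels of 10.11, 10.08 and 9.90 in JQ1 TAC hearts, against 9.19, 9.13 and 9.14 in vehicle TAC hearts, a difference of 0.88 ± 0.08. Polr2a, the large subunit of RNA polymerase II, was higher by 0.79 ± 0.12 (adjusted p = 7.22e-05). Mepce, which caps and stabilises 7SK RNA, was higher by 0.60 ± 0.10 (adjusted p = 0.00014). Ccnt1, the cyclin of P-TEFb, was higher by 0.50 ± 0.12 (adjusted p = 0.0061), a call lost without vehicle replicate 2 (adjusted p = 0.0526). Zmynd8, a bromodomain protein outside the BET family, fell by 0.69 (SE 0.09), with 7.96, 8.15 and 8.16 in JQ1 TAC hearts, against 8.85, 8.74 and 8.74 in vehicle TAC hearts. The other rises were Mllt3 at 0.34, a partner of the elongation complexes, and Supt5 at 0.28, a factor of pausing and elongation. Hexim2, the paralog of Hexim1, went the other way by −0.25. That call was lost without any 1 of 3 arrays (JQ1 replicate 2, vehicle replicates 1 and 2). With all arrays kept it was also lost under each of both scalings tried, and separately with only the arrays of the comparison fitted.

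Of 23 measured histone genes, 12 were higher and none lower, with a median of 0.35. The replication-dependent members among them are intron-poor genes whose messages normally end in a stem loop. H1f2, a linker histone, had levels of 10.99, 10.53 and 10.65 in JQ1 TAC hearts, against 9.93, 9.91 and 9.98 in vehicle TAC hearts, a difference of 0.79 ± 0.14 (adjusted p = 0.000456). H1f3, another linker histone, had 6.81, 6.59 and 6.38 in JQ1 TAC hearts, against 5.86, 5.86 and 5.67 in vehicle TAC hearts, a difference of 0.80 ± 0.11. Neither gene had overlapping groups. The linker histones H1f1 and H1f5 had differences of 0.24 and 0.32 and were not called (adjusted p = 0.187 and 0.161).

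Among core histones, H2ax, the variant phosphorylated at DNA breaks, was higher by 0.88 ± 0.10 (adjusted p = 4.83e-06). H2bc4 was higher by 0.61 ± 0.09 from a bright signal of 12.51, 12.47 and 12.31 in JQ1 TAC hearts, against 11.89, 11.72 and 11.85 in vehicle TAC hearts. H3c15 had the largest rise of the list and the widest spread, with 7.60, 7.17 and 6.61 in JQ1 TAC hearts, against 5.65, 5.64 and 5.82 in vehicle TAC hearts, a difference of 1.42 ± 0.33 (adjusted p = 0.00385). The other 7 called members rose by 0.27 to 0.64. Core histone copies are nearly alike in their coding sequence, so a probe set may record RNA of more than 1 copy. This was not tested. Leaving out any 1 array left between 9 and 12 members called higher.

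The promoters of Hexim1, H1f2 and H1f3 are shown because these genes rose together with groups that do not overlap. Each line gives 250 bases before to 50 bases after the start, 5′ to 3′ on the gene's strand, from RefSeq on GRCm38.p6, at chr11:103116075-103116374 (plus strand), chr13:23738557-23738856 (plus strand) and chr13:23554782-23555081 (plus strand).
Hexim1: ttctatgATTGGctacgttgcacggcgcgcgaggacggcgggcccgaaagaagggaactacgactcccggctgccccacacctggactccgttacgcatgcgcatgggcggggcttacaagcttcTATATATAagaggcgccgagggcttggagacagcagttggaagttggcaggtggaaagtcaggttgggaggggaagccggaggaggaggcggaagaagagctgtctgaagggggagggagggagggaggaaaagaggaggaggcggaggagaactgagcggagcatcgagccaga
H1f2: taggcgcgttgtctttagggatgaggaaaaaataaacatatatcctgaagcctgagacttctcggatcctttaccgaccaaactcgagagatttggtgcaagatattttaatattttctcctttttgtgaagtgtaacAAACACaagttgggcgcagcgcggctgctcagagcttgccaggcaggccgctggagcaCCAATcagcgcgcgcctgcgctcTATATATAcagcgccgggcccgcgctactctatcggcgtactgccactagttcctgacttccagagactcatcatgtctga
H1f3: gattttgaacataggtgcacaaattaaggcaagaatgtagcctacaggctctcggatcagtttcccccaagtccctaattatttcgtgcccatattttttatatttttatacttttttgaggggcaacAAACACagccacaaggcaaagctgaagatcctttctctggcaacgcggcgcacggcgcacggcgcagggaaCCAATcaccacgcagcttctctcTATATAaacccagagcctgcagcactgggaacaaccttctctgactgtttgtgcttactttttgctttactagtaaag
Capitals mark matches on either strand to the letters CCAAT, to the letters TATATA (which read the same on both strands) and to the letters AAACAC. Hexim1 and H1f2 each hold 2 overlapping matches to TATATA, and Hexim1 holds no AAACAC match. The letters CCAAT occur in 37.4% of the 32851 windows of the table, TATATA in 5.67% and AAACAC in 16.3%. Of the 19 measured histone genes with a window, 16 hold CCAAT, 6 hold TATATA and 8 hold AAACAC. The windows of H1f1 and H1f5, which were not called, hold CCAAT and AAACAC too, and that of H1f5 also holds 1 match to TATATA.

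MYC, E2F and immediate early factors as a list did not lean one way, with 5 of 39 members higher, none lower and a median of −0.06. Myc itself was not called (−0.23 ± 0.16, adjusted p = 0.374), and its JQ1 and vehicle TAC arrays overlapped. Jun, a subunit of AP-1, had 10.01, 10.13 and 9.77 in JQ1 TAC hearts, against 9.37, 9.24 and 9.46 in vehicle TAC hearts, a difference of 0.62 ± 0.15 (adjusted p = 0.0053). Jund, another AP-1 subunit, was higher by 0.50 ± 0.10. Mxi1 and Mxd1, which compete with MYC for MAX, were each higher by 0.36.

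Genes of the fetal and stress programme of cardiomyocytes fell: 16 of 30 measured members were lower, none was higher and the median was −0.46. Among all genes, 7.80% were higher and 7.73% lower (15.5% in all) in TAC than in sham vehicle hearts. In TAC against sham vehicle hearts, 20 of the same members were higher and 1 lower, with a median of 0.73. The JQ1 and TAC differences share the vehicle TAC arrays, so these counts stand side by side and are not independent of each other. JQ1 TAC hearts minus sham vehicle hearts had a median of 0.34 for the list. Without 1 array, 8 to 15 members were called lower, the fewest without vehicle replicate 3.

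Rcan1, a feedback inhibitor and target of calcineurin signalling, had the steepest fall of that list. Its levels were 10.38, 9.89 and 9.66 in JQ1 TAC hearts, against 11.26, 11.12 and 11.69 in vehicle TAC hearts and 9.50, 9.90 and 9.69 in sham vehicle hearts. JQ1 arrays did not overlap the vehicle TAC arrays and did overlap the sham arrays. The difference was −1.38 ± 0.18 (adjusted p = 2.24e-05). Uck2, a pyrimidine salvage kinase, had 11.15, 11.03 and 10.87 in JQ1 TAC hearts, against 12.04, 12.05 and 12.40 in vehicle TAC hearts, a difference of −1.15 ± 0.16. Xirp2, an actin-binding repeat protein of the intercalated disc, fell by 0.66. Fhl1, a LIM protein that senses stretch at the sarcomere, fell by 0.86. Synpo2l, a Z-disc protein, fell by 1.02, to 9.68, 9.63 and 9.38 in JQ1 TAC hearts, against 10.38, 10.73 and 10.66 in vehicle TAC hearts, with sham vehicle hearts at 10.00, 10.00 and 10.13.

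The classical markers of the fetal programme moved less evenly. Acta1, skeletal alpha-actin, had 12.64, 12.42 and 11.98 in JQ1 TAC hearts, against 13.34, 13.40 and 13.51 in vehicle TAC hearts and 10.34, 11.06 and 11.03 in sham vehicle hearts. The 3 groups did not overlap, with JQ1 TAC hearts between the other 2, and the difference of −1.07 ± 0.29 (adjusted p = 0.0143) lost its call without JQ1 replicate 3 (−0.89, adjusted p = 0.0719). Nppb, the B-type natriuretic peptide, had 11.90, 12.43 and 10.87 in JQ1 TAC hearts, against 12.62, 12.49 and 13.12 in vehicle TAC hearts. The groups nearly touched, and the difference of −1.01 ± 0.32 (adjusted p = 0.032) rested on JQ1 replicate 3: without it the value was −0.58 (adjusted p = 0.206), and leaving out any 1 of 4 arrays (JQ1 replicates 1 and 3, vehicle replicates 1 and 3) ended the call. Nppa, the atrial natriuretic peptide, had 12.93, 13.01 and 12.76 in JQ1 TAC hearts, against 13.51, 13.44 and 13.56 in vehicle TAC hearts. Its difference of −0.60 ± 0.18 (adjusted p = 0.0269) lost the call without any 1 of 5 arrays, all but JQ1 replicate 2, with adjusted p of 0.0563 to 0.0924.

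Myh7, the beta myosin heavy chain, was not called, with 11.55, 11.30 and 10.98 in JQ1 TAC hearts, against 11.84, 11.85 and 11.66 in vehicle TAC hearts and 10.05, 9.86 and 10.01 in sham vehicle hearts (−0.51 ± 0.22, adjusted p = 0.118). Its JQ1 arrays stayed well above the sham arrays, by 1.30 (adjusted p = 0.000328). Ankrd1, a titin-associated stress protein, fell by 0.28 (adjusted p = 0.0118), and the call ended without JQ1 replicate 3 (adjusted p = 0.0699), without vehicle replicate 3 (adjusted p = 0.0568) and after centring the arrays. The adult isoform Myh6, the alpha myosin heavy chain, was higher by 0.15 ± 0.05 (adjusted p = 0.0443), a call that ended without any 1 of the 6 arrays.

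**Figure D2:**
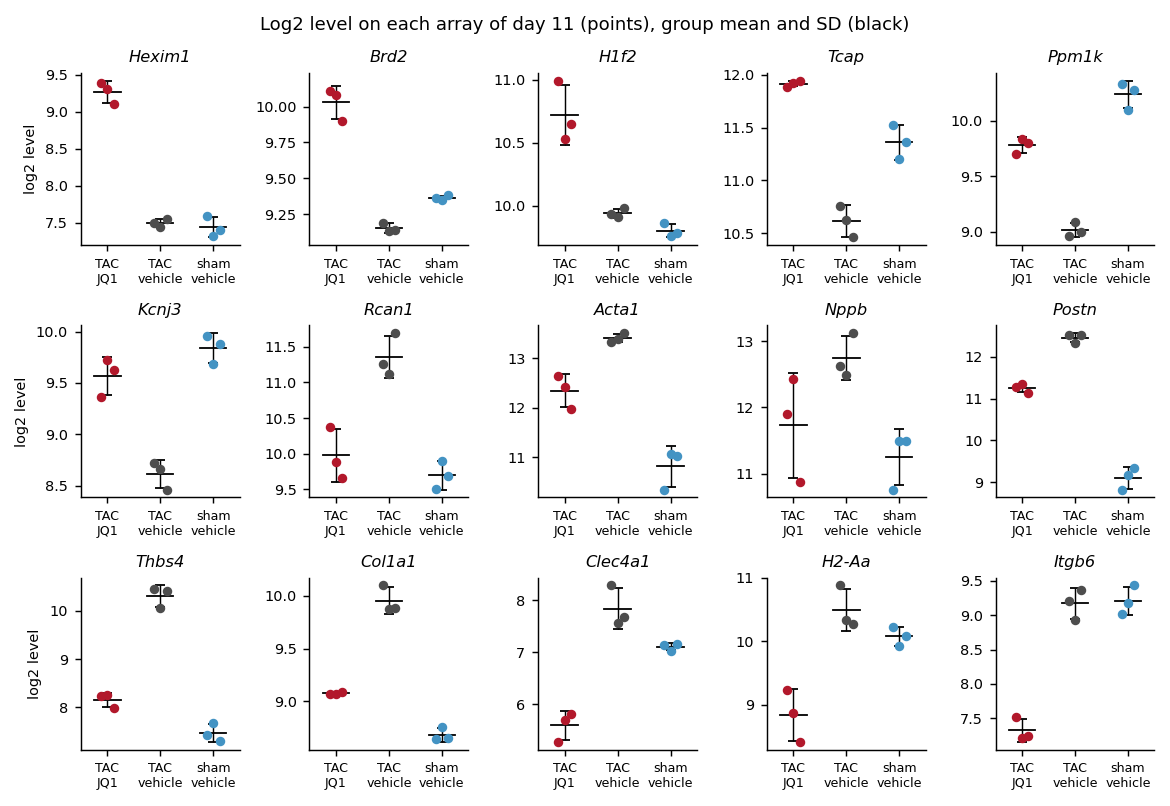
Log2 level (vertical axis) on each of the 9 arrays of day 11 for 15 genes, with JQ1 TAC hearts left, vehicle TAC hearts in the middle and sham vehicle hearts right. Points are arrays, the horizontal bar is the group mean and the error bar its SD (n = 3). In each panel the JQ1 arrays lie wholly on one side of the vehicle TAC arrays, and Nppb has the widest JQ1 spread (10.87 to 12.43).

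Of 21 adult sarcomere genes 4 were higher and 1 lower, with a median of 0.07, and 8 were higher with arrays centred or with a variance trend. Tcap, the titin cap at the Z-disc, had the largest rise of the list, with 11.89, 11.92 and 11.94 in JQ1 TAC hearts, against 10.76, 10.63 and 10.46 in vehicle TAC hearts and 11.53, 11.20 and 11.36 in sham vehicle hearts. All 3 JQ1 arrays exceeded every sham array, and the difference was 1.30 ± 0.10 (adjusted p = 4.63e-08). The cardiac myosin light chain kinase Mylk3 was higher by 0.42 ± 0.09, and its relative Mylk4 by 1.15 ± 0.26, with 10.34, 10.34 and 10.48 in JQ1 TAC hearts, against 8.91, 9.80 and 9.0 in vehicle TAC hearts. Myot, a Z-disc protein, fell by 0.93 (SE 0.19). The 12 cardiomyocyte markers had a mean level of 13.31 to 13.33 on the JQ1 arrays, 13.23 to 13.27 on the vehicle TAC arrays and 13.29 to 13.30 on the sham arrays. Those markers had a median of 0.06, with 1 of the 12 called higher and none lower. The higher calls were 4 with arrays centred, 0 after quantile normalization and 0 without any 1 of the 6 arrays.

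Calcium handling and ion channel genes gave 6 rises and 2 falls among 33 members, with a median of 0.08. The rises were 3 without JQ1 replicate 2, JQ1 replicate 3 or vehicle replicate 1, and the falls were 0 without JQ1 replicate 1. The rises were led by potassium channels. Kcnj3, a subunit of the acetylcholine-gated potassium channel, had 9.36, 9.72 and 9.63 in JQ1 TAC hearts, against 8.72, 8.66 and 8.46 in vehicle TAC hearts and 9.96, 9.68 and 9.88 in sham vehicle hearts, a difference of 0.96 ± 0.12 (adjusted p = 1.24e-05). Kcnj2, the main inward rectifier of ventricular muscle, was higher by 0.67 ± 0.10, to 9.29, 9.20 and 9.29 in JQ1 TAC hearts, against 8.63, 8.61 and 8.54 in vehicle TAC hearts. Kcnj5, the partner of Kcnj3 in the same channel, went the other way by −0.30 ± 0.07, a call lost without JQ1 replicate 1 (adjusted p = 0.0533). Cacna1c, the L-type calcium channel, was higher by 0.31. Atp2a2, the calcium pump of the sarcoplasmic reticulum, had a difference of 0.13 ± 0.05 (adjusted p = 0.109) and was not called.

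Probe sets at microRNA loci record RNA of the hairpin and of any longer transcript that covers it, not the mature microRNA. Of 296 such loci, 8 were higher and 4 lower, with a median of −0.06. Both are smaller shares than among all genes, where 7.52% were higher and 8.43% lower. Several of the rises were at loci of muscle. Mir208a, which lies within an intron of Myh6, had 9.03, 8.23 and 8.04 in JQ1 TAC hearts, against 7.37, 7.23 and 7.42 in vehicle TAC hearts and 8.20, 8.06 and 8.44 in sham vehicle hearts. The JQ1 and vehicle groups did not overlap, and the difference was 1.09 ± 0.23 (adjusted p = 0.0018). Mir1a-1 was higher by 1.39 ± 0.32 and Mir133a-1 by 1.26 ± 0.25, from dimmer signals of 5.77 to 6.70 and 6.90 to 7.38 in JQ1 TAC hearts, against 4.64 to 4.98 and 5.58 to 6.19 in vehicle TAC hearts. Mir126a, an endothelial microRNA within an intron of Egfl7, was higher by 1.01 ± 0.30 (adjusted p = 0.0232), a call lost without JQ1 replicate 1 (adjusted p = 0.171) or without vehicle replicate 2 (adjusted p = 0.16), while Egfl7 had a difference of 0.03. Mir499, whose product is close to that of Mir208a, was not called (0.28 ± 0.15, adjusted p = 0.216).

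Mature products are shown for Mir208a and Mir126a, which are among the called loci, and for Mir499, which was not called. The sequences are from RefSeq on GRCm38.p6, with the seed, bases 2 to 8, in capitals. In the order shown they lie at chr14:54949072-54949093 (minus strand), chr2:155622893-155622913 (plus strand) and chr2:26591402-26591423 (plus strand).
mmu-miR-208a-3p: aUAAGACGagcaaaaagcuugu
mmu-miR-499-5p: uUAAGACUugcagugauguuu
mmu-miR-126a-3p: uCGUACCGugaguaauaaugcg
The seeds of miR-208a-3p and miR-499-5p share their first 6 bases, while their loci differed in call.

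Collagen chains had the lowest median of the 40 lists. Of 23 measured collagen chain genes, 16 were lower, none was higher, all 23 had a difference below 0 and the median was −0.62. In TAC against sham vehicle hearts 15 of the 23 were higher, with a median of 0.90. Col8a1, a short-chain collagen of injured vessels and heart, had 10.02, 9.68 and 9.61 in JQ1 TAC hearts, against 11.12, 11.23 and 11.27 in vehicle TAC hearts and 8.46, 8.92 and 8.73 in sham vehicle hearts, a difference of −1.44 ± 0.16 (adjusted p = 3e-06). Col1a1, the main chain of fibrillar collagen, had 9.07, 9.07 and 9.09 in JQ1 TAC hearts, against 10.10, 9.88 and 9.89 in vehicle TAC hearts and 8.64, 8.76 and 8.65 in sham vehicle hearts, a difference of −0.88 ± 0.15 (1.84-fold lower, adjusted p = 0.000268). Both genes lay between the sham and the vehicle TAC arrays without overlapping either. JQ1 TAC hearts minus sham vehicle hearts was 1.06 for Col8a1 (adjusted p = 0.000118) and 0.39 for Col1a1, which was not called in that comparison (adjusted p = 0.0998). Col1a2 and Col3a1 fell by 0.84 and 0.86. Col4a1 and Col4a2, the pair of basement membrane chains, fell by 0.62 and 0.49. Col15a1, a basement membrane collagen, fell by 1.32, to 9.02, 8.94 and 8.77 in JQ1 TAC hearts, against 10.18, 10.17 and 10.35 in vehicle TAC hearts, which put it among its sham levels of 8.78, 8.98 and 8.87.

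Among 48 other matrix and matricellular genes, 30 were lower, none was higher and the median was −0.57, against 37 higher and 1 lower for TAC. Thbs4, a thrombospondin of stressed muscle, had 8.23, 8.25 and 7.98 in JQ1 TAC hearts, against 10.46, 10.05 and 10.40 in vehicle TAC hearts and 7.42, 7.67 and 7.31 in sham vehicle hearts, a difference of −2.15 ± 0.35, or 4.44-fold lower (adjusted p = 0.000166). Postn, periostin, the marker of activated fibroblasts, had 11.29, 11.34 and 11.14 in JQ1 TAC hearts, against 12.52, 12.33 and 12.52 in vehicle TAC hearts and 8.82, 9.16 and 9.33 in sham vehicle hearts. Its JQ1 arrays sat below all vehicle TAC arrays and above all sham arrays, with differences of −1.2 ± 0.24 from the first and 2.15 from the second. Timp1, an inhibitor of matrix proteases, had 8.93, 8.55 and 8.60 in JQ1 TAC hearts, against 10.50, 9.58 and 10.78 in vehicle TAC hearts and 7.05, 7.03 and 6.88 in sham vehicle hearts. Thbs1, an activator of latent TGF-beta, fell by 1.59 (SE 0.26), Cilp, a matrix protein of cartilage and stressed heart, by 1.49 (SE 0.28), and Mfap5, a microfibril protein, by 1.37 (SE 0.18). Lox, which cross-links collagen, fell by 1.41 (adjusted p = 0.0134), but did not pass once vehicle replicate 1 was left out (adjusted p = 0.0699). Fn1, fibronectin, was not called, with 10.01, 10.16 and 10.07 in JQ1 TAC hearts, against 10.96, 10.50 and 10.69 in vehicle TAC hearts (−0.64 ± 0.23, adjusted p = 0.0605).

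Of 18 fibroblast markers, 8 were lower and none higher, with a median of −0.39. The list shares genes with the matrix lists, among them Col1a1, Col1a2 and Mfap5, so these counts are not separate. The markers did not all fall: 5 of the 18 lay above 0, the highest at 0.41. With only the arrays of the comparison fitted, 10 of these markers were called lower and 2 higher. Their mean level was 9.30 to 9.43 on the JQ1 arrays, 9.71 to 9.87 on the vehicle TAC arrays and 9.09 to 9.15 on the sham arrays. In whole tissue, fewer cells of a type and less RNA per cell cannot be told apart. Meox1, a transcription factor of activated fibroblasts, had 7.77, 7.54 and 7.69 in JQ1 TAC hearts, against 9.16, 9.02 and 9.57 in vehicle TAC hearts and 7.58, 7.82 and 7.71 in sham vehicle hearts. Its JQ1 and sham arrays overlapped, and its difference was −1.58 ± 0.21 (adjusted p = 1.65e-05). Pdgfra and Thy1, surface markers of the lineage, fell by 0.49 and 0.47. Aldh1a2, a retinoic acid enzyme of the epicardium, was the 1 lower gene among 14 mesothelial and epicardial markers (−1.43 ± 0.36, adjusted p = 0.00879). The lower share of that list was 7.14%, against 8.43% of all genes.

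In the TGF-beta pathway 16 of 31 members were lower and none higher, with a median of −0.24. The falls were spread over ligands, a receptor and targets. Tgfb2, a ligand, had 7.96, 8.05 and 7.77 in JQ1 TAC hearts, against 8.94, 9.06 and 9.33 in vehicle TAC hearts and 7.69, 7.63 and 7.85 in sham vehicle hearts, a difference of −1.18 ± 0.16. The ligand Tgfb3 fell by 0.84, and Tgfb1 was not called (−0.12 ± 0.09, adjusted p = 0.403). Tgfbr2, the type II receptor, fell by 0.59 (SE 0.07). The target Ccn2, a matricellular growth factor, had 10.84, 10.71 and 10.45 in JQ1 TAC hearts, against 11.69, 11.73 and 12.07 in vehicle TAC hearts and 10.42, 10.27 and 10.22 in sham vehicle hearts, a difference of −1.16 ± 0.19. Ccn5, a relative of Ccn2, fell by 0.81, and Fstl1, a secreted glycoprotein, by 0.96. Nox4, an oxidase induced by TGF-beta, had a difference of −0.88 ± 0.30 (adjusted p = 0.0469), a call that ended without any 1 of the 6 arrays.

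Growth factor genes gave 11 falls and 1 rise among 38 members, with a median of −0.14. Igf1, insulin-like growth factor, had 7.63, 7.80 and 7.73 in JQ1 TAC hearts, against 9.06, 8.73 and 9.07 in vehicle TAC hearts and 7.49, 7.79 and 7.77 in sham vehicle hearts, a difference of −1.23 ± 0.17. Hbegf, a ligand of the EGF receptor, had 9.13, 9.21 and 8.56 in JQ1 TAC hearts, against 9.82, 10.08 and 10.53 in vehicle TAC hearts, a difference of −1.18 ± 0.16. Hgf and its receptor Met fell by 0.66 and 0.81, and Pdgfc, a ligand of the PDGF receptor alpha, by 1.0. Fgf13, an intracellular modulator of sodium channels, was the rise (0.66 ± 0.10). Dio2, which activates thyroid hormone, was among the largest falls of any gene outside these lists, with 6.25, 6.23 and 6.05 in JQ1 TAC hearts, against 7.46, 7.70 and 7.92 in vehicle TAC hearts and 6.29, 6.43 and 6.36 in sham vehicle hearts.

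Macrophage and monocyte genes held several of the deepest single falls. Of 39 measured markers, 26 were lower and none higher, with a median of −0.54. The mean level over the 39 was 7.48 to 7.58 on the JQ1 arrays, 8.18 to 8.36 on the vehicle TAC arrays and 7.71 to 7.75 on the sham arrays, so the JQ1 arrays lay below both other groups. Clec4a1, a C-type lectin receptor of myeloid cells, had 5.28, 5.70 and 5.81 in JQ1 TAC hearts, against 8.28, 7.56 and 7.67 in vehicle TAC hearts and 7.14, 7.03 and 7.15 in sham vehicle hearts, a difference of −2.24 ± 0.24, or 4.73-fold lower (adjusted p = 2.12e-06). Cd180, a Toll-like receptor relative, had 6.17, 6.07 and 6.25 in JQ1 TAC hearts, against 8.29, 8.04 and 7.91 in vehicle TAC hearts and 7.06, 7.23 and 7.05 in sham vehicle hearts. Clec12a, an inhibitory lectin, had 6.01, 6.26 and 5.89 in JQ1 TAC hearts, against 8.29, 7.74 and 8.19 in vehicle TAC hearts and 7.26, 7.18 and 7.30 in sham vehicle hearts. These 3 genes were below sham as well, by −1.51, −0.95 and −1.19 (adjusted p = 0.000218, 0.000638 and 0.00494).

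Ccr2, the receptor that brings monocytes from blood, had 5.37, 5.64 and 5.78 in JQ1 TAC hearts, against 7.61, 7.11 and 7.28 in vehicle TAC hearts and 6.30, 6.25 and 6.42 in sham vehicle hearts, a difference of −1.74 ± 0.34 (adjusted p = 0.00115). Ms4a7 and Fcrls of the list fell by 1.86 and 1.71, and the lectin Clec4n, outside it, by 1.63. The falls were smaller for Adgre1, the F4/80 antigen, at −0.93, for Fcgr1, the high-affinity IgG receptor, at −1.07, and for Cd68, a lysosomal protein of macrophages, at −0.69. Csf1r, the receptor on which macrophages depend, had 9.02, 9.30 and 9.12 in JQ1 TAC hearts, against 9.53, 9.49 and 9.54 in vehicle TAC hearts, a difference of −0.37 ± 0.12 (adjusted p = 0.033) that lost its call without any 1 of 5 arrays, all but JQ1 replicate 2 (adjusted p = 0.0701 to 0.151). Of the 39 differences 36 lay below 0, and the highest was 0.19 ± 0.20 for Cd163, a haemoglobin scavenger receptor, which was not called (adjusted p = 0.552). The number of members called lower was 17 to 22 when 1 array was left out, the fewest without JQ1 replicate 1 or vehicle replicate 1.

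Antigen presentation markers were lower too, in 8 of 12, with none higher and a median of −0.47. The list holds class II genes and also genes outside class II. H2-Aa, a class II chain, had 9.23, 8.88 and 8.42 in JQ1 TAC hearts, against 10.88, 10.33 and 10.28 in vehicle TAC hearts and 10.23, 9.93 and 10.09 in sham vehicle hearts, a difference of −1.65 ± 0.38 (adjusted p = 0.00422). H2-Eb1, another class II chain, fell by 1.44 (adjusted p = 8.44e-05). The TAC difference was 0.41 for H2-Aa and 0.37 for H2-Eb1, neither of them called, and the JQ1 arrays of both genes were below all sham arrays. H2-Ab1 and the invariant chain Cd74 fell by 1.47 and 1.2, with the H2-Ab1 call lost without JQ1 replicate 3 or vehicle replicate 1 (adjusted p = 0.0518 and 0.0516) and the Cd74 call without vehicle replicate 1 (adjusted p = 0.0542). Over the 12 markers, the JQ1 arrays lay between 7.07 and 7.18, the vehicle TAC arrays between 7.67 and 7.97 and the sham arrays between 7.59 and 7.71. Without vehicle replicate 1, 4 of them were called lower.

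Cytokine, chemokine and NF-kappaB genes gave 15 falls and 1 rise among 44 members, with a median of −0.30. Cxcl9, a chemokine induced by interferon gamma, had 7.42, 7.19 and 7.04 in JQ1 TAC hearts, against 8.44, 9.03 and 8.09 in vehicle TAC hearts, a difference of −1.30 ± 0.23. Cxcl16, a chemokine for T cells, fell by 1.09 (SE 0.16), Ccl9, a myeloid chemokine, by 1.03, and Il33, an alarmin, by 0.76. The rise was Il15, a cytokine of natural killer and memory T cells that muscle also makes, with 8.47, 8.56 and 8.41 in JQ1 TAC hearts, against 7.83, 7.65 and 7.87 in vehicle TAC hearts and 8.98, 8.76 and 9.11 in sham vehicle hearts. Complement genes gave 10 falls and 1 rise among 21 members, with a median of −0.35. Itgam, a chain of complement receptor 3, and C1qb, a chain of C1q, fell by 0.93 and 0.53, and 3 to 8 members were called lower when 1 array was left out, the fewest without vehicle replicate 1. Interferon-stimulated genes had a median of −0.24 with 2 of 29 lower and none higher, and with 0 lower without vehicle replicate 2 and 6 with only the arrays of the comparison fitted. Lymphocyte markers were lower in 2 of 18 (11.1%) and neutrophil and mast cell markers in 1 of 17 (5.88%). The lower share of the interferon-stimulated genes was 6.90%, and that of all genes was 8.43%.

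**Figure D3:**
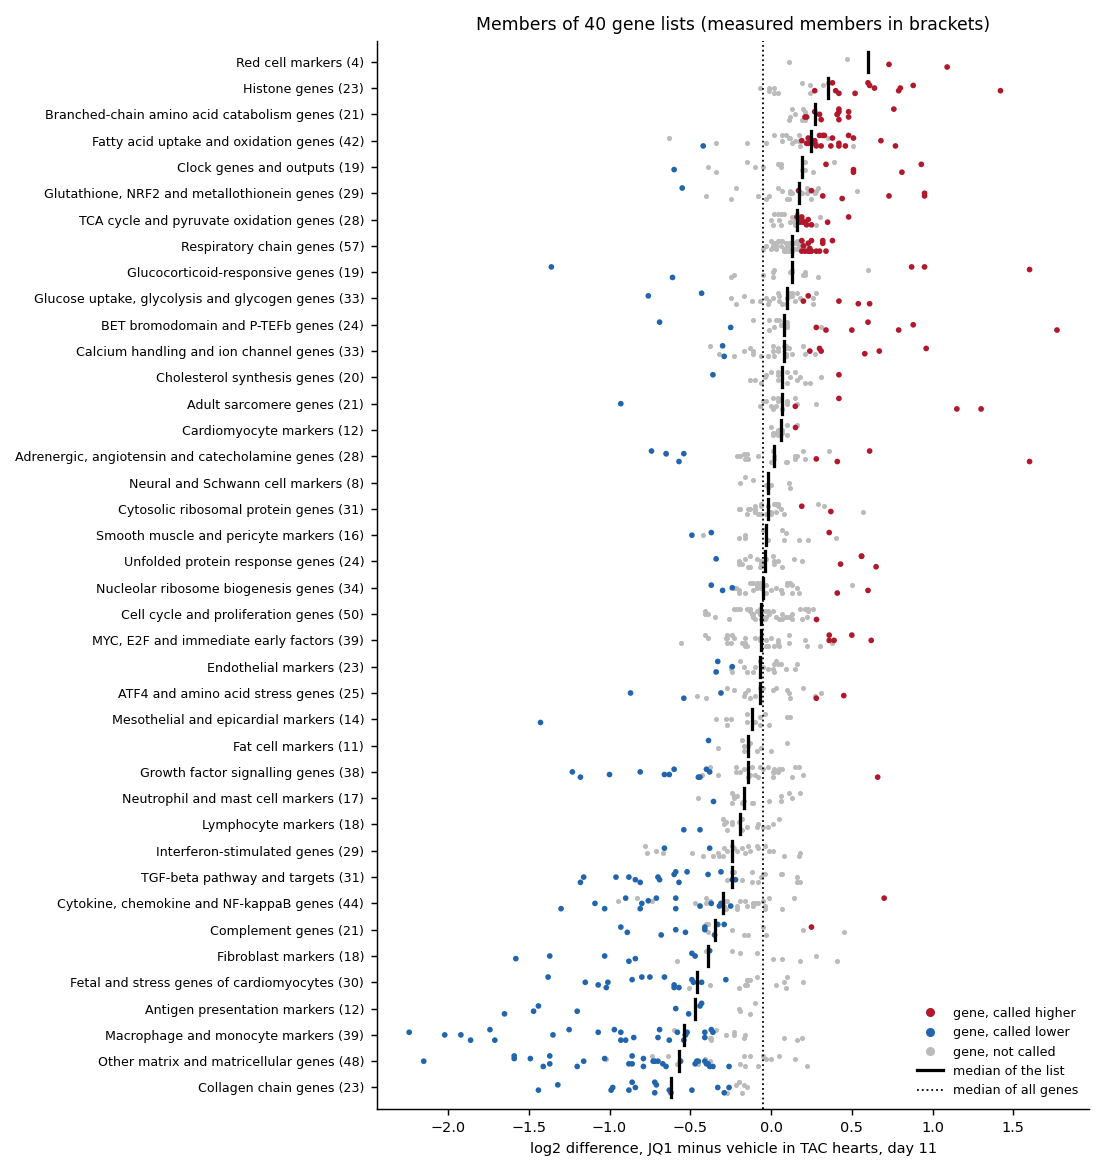
Log2 differences, JQ1 minus vehicle in TAC hearts of day 11 (horizontal axis), of the members of 40 gene lists, ordered by list median. Red and blue points are called genes, black bars are list medians and the dotted line is the median of all genes (−0.05). The lowest median is that of collagen chains (−0.62), and histones (0.35) lie near the top.

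Few proliferation genes were called at day 11. Of 50 cell cycle genes, 1 was higher and none lower, with a median of −0.06, although 30 of them were higher in TAC than in sham vehicle hearts. Mki67, a marker of cycling cells, had 8.44, 8.05 and 8.23 in JQ1 TAC hearts, against 8.34, 8.21 and 8.36 in vehicle TAC hearts and 6.60, 6.71 and 6.89 in sham vehicle hearts. Its JQ1 and vehicle arrays overlapped (−0.06 ± 0.22, adjusted p = 0.875), and both lay well above sham. Ccnd3, a G1 cyclin, was the rise at 0.28 ± 0.06. At day 3, 24 of the 50 were lower with JQ1 and 1 higher, with a median of −0.42, while 7.61% of all genes were lower and 4.28% higher. The difference between days 3 and 11 passed the test for 1 of the 50. For Mki67 that difference had an adjusted p of 0.0719.

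Fuel metabolism moved upward by small steps. Of 42 genes of fatty acid uptake and oxidation, 21 were higher and 1 lower, with a median of 0.25. In TAC against sham vehicle hearts 32 of the 42 were lower and none higher. Ppargc1a, the coactivator of mitochondrial genes, had 10.91, 11.06 and 10.95 in JQ1 TAC hearts, against 10.59, 10.52 and 10.54 in vehicle TAC hearts and 11.25, 11.25 and 11.30 in sham vehicle hearts, a difference of 0.42 ± 0.08 (adjusted p = 0.000423). The groups did not overlap, and JQ1 TAC hearts lay between the other 2. Plin5, which ties lipid droplets to mitochondria, was higher by 0.68 ± 0.14, and Slc27a1, a fatty acid transporter, by 0.46 ± 0.11. Acaa2, a thiolase of beta-oxidation, was higher by 0.37 ± 0.06 and bright, averaging 12.96 ± 0.04 in JQ1 TAC hearts and 12.60 ± 0.03 in vehicle TAC hearts (SD, n = 3 each). Pparg was the 1 member called lower (−0.42), a call lost without JQ1 replicate 1 or 2 (adjusted p = 0.068 and 0.0703). Ppara, the main PPAR of cardiac muscle, was not called (0.07 ± 0.11).

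Branched-chain amino acid catabolism rose in 13 of 21 members, with all 21 above 0 and a median of 0.27, against 19 lower for TAC. Ppm1k, the phosphatase that activates the branched-chain ketoacid dehydrogenase, had 9.70, 9.84 and 9.80 in JQ1 TAC hearts, against 8.96, 9.09 and 9.0 in vehicle TAC hearts and 10.33, 10.10 and 10.28 in sham vehicle hearts, a difference of 0.76 ± 0.11 (adjusted p = 3.53e-05). The subunits of that dehydrogenase rose together, Dbt by 0.48, Bckdhb by 0.48 and Bckdha by 0.42. With 1 array left out, 8 to 10 members were called, the fewest without vehicle replicate 1.

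For the TCA cycle 11 of 28 members and for the respiratory chain 16 of 57 were higher and none was lower, with medians of 0.16 and 0.13. Suclg1, a subunit of succinyl-CoA ligase, was higher by 0.35 ± 0.07 and Pcx, pyruvate carboxylase, by 0.48 ± 0.10. Ndufa9, a subunit of complex I, had 12.09, 12.13 and 12.12 in JQ1 TAC hearts, against 11.82, 11.90 and 11.91 in vehicle TAC hearts, a difference of 0.24 ± 0.06. Steps of this size depended on the scale and on single arrays. The respiratory chain had 31 calls with arrays centred on their median and 10 after a second quantile normalization, and 4 to 11 when 1 array was left out, the fewest without vehicle replicate 2. The TCA cycle had 15 and 7 calls under the same scalings and 2 to 7 without 1 array, the fewest without vehicle replicate 1. In TAC against sham vehicle hearts 17 TCA and 27 respiratory genes were lower.

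Glucose genes divided, with 5 higher and 2 lower of 33 and a median of 0.10, and 3 were higher without vehicle replicate 1 and 8 with arrays centred. Slc2a4, the insulin-responsive glucose transporter of adult muscle, had 11.61, 11.68 and 11.65 in JQ1 TAC hearts, against 11.14, 11.14 and 11.03 in vehicle TAC hearts and 11.71, 11.70 and 11.71 in sham vehicle hearts. Pfkp, the platelet isoform of phosphofructokinase, fell to 9.61, 9.50 and 9.37 in JQ1 TAC hearts, against 10.19, 10.25 and 10.31 in vehicle TAC hearts (−0.76 ± 0.14). Phkg1, the muscle catalytic subunit of phosphorylase kinase, was higher by 0.61 ± 0.12, with 7.30, 7.40 and 7.08 in JQ1 TAC hearts, still below the sham levels of 8.38, 8.16 and 8.39.

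Stress and redox lists differed from each other. In the unfolded protein response 4 of 24 were higher and 1 lower, with a median of −0.04. Ern1, the sensor IRE1, and Ddit3, the factor CHOP, were each higher by 0.56, while Herpud1, a factor of degradation from the endoplasmic reticulum, was higher by 0.65 ± 0.14. Among glutathione, NRF2 and metallothionein genes 7 of 29 were higher and 1 lower, with a median of 0.17. The higher share was 24.1%, against 7.52% of all genes, and 22 of the 29 lay above 0. Gclc, the rate-limiting enzyme of glutathione synthesis, had 10.00, 10.09 and 9.80 in JQ1 TAC hearts, against 9.06, 8.99 and 9.0 in vehicle TAC hearts and 8.98, 8.87 and 9.02 in sham vehicle hearts. The JQ1 arrays stood above both other groups, and the difference of Gclc was 0.95 ± 0.10 (adjusted p = 1.96e-06). Mt1 and Mt2, the metallothioneins, were higher by 0.73 and 0.95, and Mt2 was also higher in TAC than in sham vehicle hearts (0.58). Slc38a2, an amino acid transporter, fell by 0.87 (SE 0.11), while the ATF4 list as a whole had 2 rises and 3 falls among 25 and a median of −0.07.

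Clock genes gave 5 rises and 1 fall among 19, with a median of 0.19, and 3 rises without vehicle replicate 1. Hlf, a PAR-domain output factor, had 8.71, 8.78 and 8.81 in JQ1 TAC hearts, against 7.97, 8.02 and 7.89 in vehicle TAC hearts and 8.86, 8.74 and 8.91 in sham vehicle hearts, a difference of 0.81 ± 0.09. Cry1, a repressor of the clock, was higher by 0.51 ± 0.10. The labels do not state the hour at which tissue was taken, and its part was not tested. Pnmt, which makes adrenaline from noradrenaline and responds to glucocorticoids, had the second largest rise of called genes, with 8.68, 8.23 and 7.95 in JQ1 TAC hearts, against 6.83, 6.77 and 6.44 in vehicle TAC hearts and 7.19, 7.15 and 7.13 in sham vehicle hearts, a difference of 1.60 ± 0.22. The glucocorticoid list, which holds Pnmt, had 3 rises and 2 falls among 19. Serpina3n, an acute-phase protease inhibitor of the same list, fell by 1.36 (SE 0.35, adjusted p = 0.00944).

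Of 28 adrenergic, angiotensin and catecholamine genes 4 were higher and 4 lower, with a median of 0.02, and 2 were higher without JQ1 replicate 1. Ace, the angiotensin converting enzyme, had 9.96, 9.87 and 9.80 in JQ1 TAC hearts, against 10.39, 10.41 and 10.54 in vehicle TAC hearts and 9.44, 9.43 and 9.54 in sham vehicle hearts. The endothelin receptor Ednrb fell by 0.74 and the natriuretic peptide clearance receptor Npr3 by 0.54, and Maob, an amine oxidase, was higher by 0.61. Ribosomal protein genes gave 2 rises of 31 and nucleolar genes 2 rises and 3 falls of 34, led by Nop56 at 0.60, a core protein of box C/D particles. Cholesterol synthesis gave 1 rise and 1 fall of 20.

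Among cell types with few differences, endothelial markers were lower in 3 of 23 (Ets1, Emcn and Cdh5, by 0.33, 0.34 and 0.24). Each of the 3 lost its call with arrays centred on their median, and the count without 1 array was 0 to 1, against 6 with only the arrays of the comparison fitted. Smooth muscle and pericyte markers gave 1 rise and 2 falls of 16, fat cell markers 1 fall of 11 and neural markers none of 8. Genes of red cells were higher, with sizes set in part by 1 array. Alas2, the first enzyme of haem synthesis in erythroid cells, had 9.52, 9.38 and 10.87 in JQ1 TAC hearts, against 8.60, 9.04 and 8.86 in vehicle TAC hearts, with JQ1 replicate 3 highest and all 3 JQ1 arrays above every vehicle array. Bpgm and Tent5c were high on the same array (8.89 and 10.08). Without it the differences were 0.62 for Alas2, 0.36 for Bpgm and 0.60 for Tent5c, against 1.09, 0.73 and 1.10 with it, and the call of Bpgm was lost (adjusted p = 0.0563) while those of Alas2 and Tent5c held (adjusted p = 0.0308 and 0.0207). With only the arrays of the comparison fitted, none of the 3 was called (adjusted p = 0.0668 for Alas2, 0.105 for Bpgm and 0.078 for Tent5c). Over the 4 red cell markers the JQ1 arrays had mean levels of 7.55 to 8.64, the vehicle TAC arrays 7.23 to 7.51 and the sham arrays 7.35 to 7.52, and the part of blood left in the tissue was not tested.

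Several called genes stood outside every list. Zswim6, a zinc finger gene, had 10.15, 10.19 and 9.92 in JQ1 TAC hearts, against 8.95, 8.76 and 8.89 in vehicle TAC hearts and 8.62, 8.60 and 8.73 in sham vehicle hearts, a difference of 1.22 ± 0.09 (adjusted p = 4.63e-08). Cirbp, a cold-inducible RNA-binding protein, was higher by 1.13 ± 0.19, with 10.04, 9.53 and 9.90 in JQ1 TAC hearts, against 8.69, 8.62 and 8.77 in vehicle TAC hearts. Itgb6, the beta subunit of the integrin that activates TGF-beta on epithelia, had 7.52, 7.22 and 7.24 in JQ1 TAC hearts, against 9.21, 8.93 and 9.37 in vehicle TAC hearts and 9.02, 9.17 and 9.43 in sham vehicle hearts. Its TAC difference was −0.04 (adjusted p = 0.958), and with JQ1 it fell by 1.84 (SE 0.20, adjusted p = 3.32e-06), to levels below every sham array. Nxpe5 fell by 1.51 (SE 0.17).

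A few genes had JQ1 and TAC differences of the same sign, given side by side because both share the vehicle TAC arrays. Art4, a mono-ADP-ribosyltransferase, had 7.24, 7.48 and 7.55 in JQ1 TAC hearts, against 8.32, 8.18 and 8.02 in vehicle TAC hearts and 8.93, 8.68 and 8.88 in sham vehicle hearts, which is −0.75 for JQ1 and −0.65 for TAC. Synj2, an inositol phosphatase, had −0.41 and −0.50, and Ankrd13a, an ankyrin repeat protein, 0.41 and 0.32. Of the largest TAC falls, Penk, proenkephalin, had 6.96, 7.06 and 7.05 in JQ1 TAC hearts, against 6.97, 6.79 and 6.61 in vehicle TAC hearts and 8.89, 8.38 and 8.78 in sham vehicle hearts, with no call for JQ1 (0.24 ± 0.22, adjusted p = 0.516). Lgals4, a galectin, likewise had a JQ1 difference of 0.24 ± 0.22 beside a TAC difference of −1.72.

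The same difference was measured at days 3 and 28, in 3 arrays per group at each day, and the change of the JQ1 difference between days was tested for each gene. Between days 11 and 3 it passed for 17 genes (0.0853%), 14 (0.0702%) with a more positive difference at day 11 and 3 (0.0150%) with a more negative one. Between days 11 and 28 it passed for 170 genes (0.853%), 131 (0.657%) more positive at day 11 and 39 (0.196%) more negative. These counts rest on the spread pooled over all 27 arrays. With only the 4 groups compared they were 0 and 22, and with 1 array left out 0 to 97 and 22 to 1229. The first count was most without vehicle replicate 2 of day 3 and was 0 without any 1 of JQ1 replicates 1 and 3 or vehicle replicates 2 and 3 of day 11, JQ1 replicate 3 of day 3 or vehicle replicate 3 of day 3. The second was most without JQ1 replicate 3 of day 28 and least without JQ1 replicate 2 of day 11. Hexim1 was not among them, with differences of 1.85 at day 3, 1.77 at day 11 and 1.94 at day 28.

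Ppm1k and Kcnj3 were among the genes whose JQ1 difference was larger at day 11 than at day 3. Ppm1k had differences of −0.07, 0.76 and 0.40 at days 3, 11 and 28, a change of 0.84 ± 0.15 from day 3 (adjusted p = 0.039). Kcnj3 had 0.06, 0.96 and 0.43, a change of 0.90 ± 0.17. Phkg1 had −0.33, 0.61 and 0.14, and Gpr22, an orphan receptor, −1.01, 0.35 and −0.20. At day 11 Gpr22 was not called (adjusted p = 0.153), while its fall at day 3 passed (adjusted p = 0.00023). Mme, the protease neprilysin, had −0.39, 0.62 and 0.62. On the negative side stood Col8a1 with −0.22, −1.44 and −0.91, Hbegf with 0.06, −1.18 and −0.42, and Emp1, an epithelial membrane protein, with −0.16, −1.04 and −0.33.

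Against day 28, Tcap had a larger difference at day 11, with 0.82, 1.30 and 0.50 at days 3, 11 and 28, a change of 0.80 ± 0.14 from day 28 (adjusted p = 0.0146). Oplah, a 5-oxoprolinase, had 0.31, 0.61 and −0.26, Agtrap, a protein that binds the angiotensin receptor, −0.22, 0.11 and −0.53, and Usp54, a ubiquitin protease relative, −0.35, 0.21 and −0.62. At day 11 Agtrap and Usp54 were not called (adjusted p = 0.32 and 0.125), while their falls at day 28 passed (adjusted p = 5.63e-06 and 2.74e-05). Spon2, a secreted matrix protein, had −0.55, −0.97 and 0.02, and Serpinb9b, a protease inhibitor, −0.17, −0.64 and 0.02, so both fell at day 11 and lay near 0 at day 28.

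**Figure D4:**
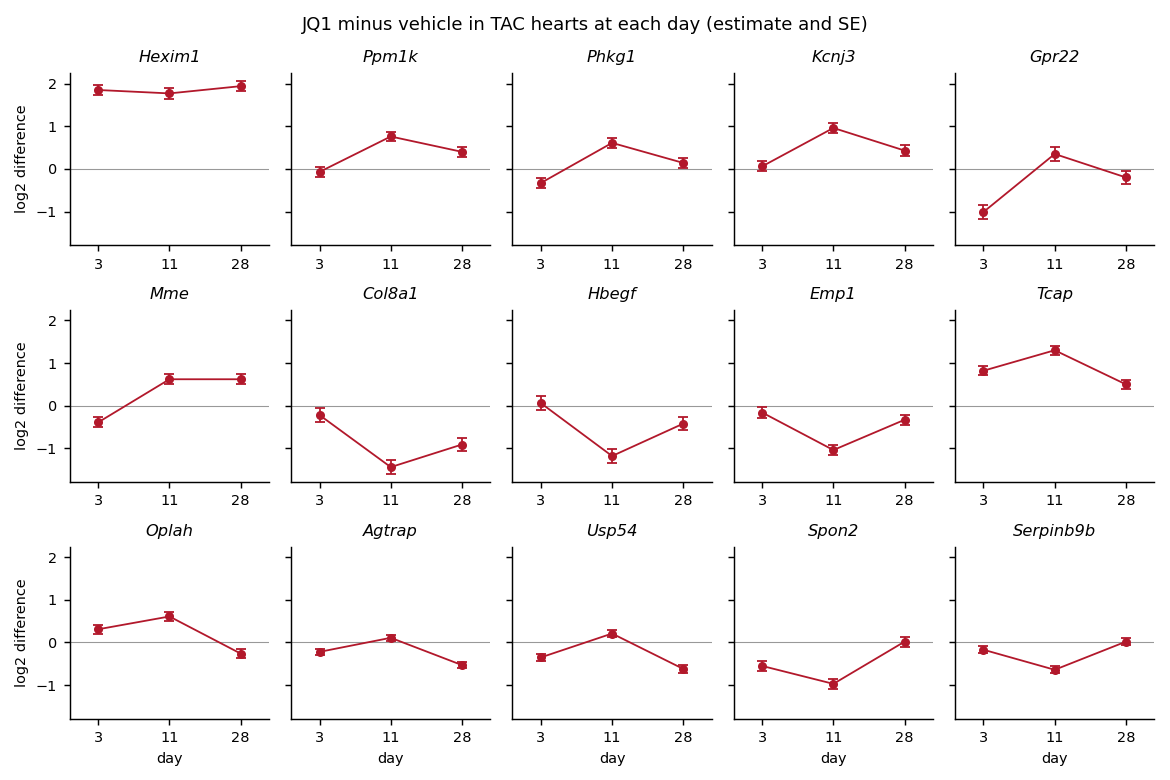
Log2 difference, JQ1 minus vehicle in TAC hearts (vertical axis), at days 3, 11 and 28 (horizontal axis) for 15 genes. Points are estimates from 3 arrays per group and bars their SE. Hexim1 lies between 1.77 and 1.94, Col8a1, Hbegf and Emp1 are lowest at day 11, and Spon2 and Serpinb9b lie near 0 at day 28.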

How the data were processed

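RNA of 27 heart samples, 3 in each of 9 groups, was measured on arrays of 34760 probe sets. The authors deposited log2 expression values for every probe set, 1 column per array, and per the submitters' processing notes limma was among the tools used. How these log2 values were normalized is not stated in the labels. Groups were taken from sample titles. Probe sets were named through the platform's annotation: 21640 had 1 gene, 1321 several and 11799 none. Of 954 genes with several probe sets, the brightest on average across the 27 arrays was kept, which left 19937 genes.

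Group means of all 9 groups were estimated together with limma 3.58.1 in R 4.3.3 (lmFit and eBayes, 18 residual degrees of freedom), and p-values were adjusted over all genes by the Benjamini-Hochberg method. The same fit gave TAC against sham and the change of the JQ1 difference between days. The fit was tested on simulated data. Members and lists were chosen with earlier results of these data known: 40 lists (28 of pathways, 12 of cell markers) with 1123 names, of which 1018 were matched. Named genes are 30 fixed genes (29 matched), the 15 largest rises and falls with groups that do not overlap, up to 5 members per list by p, the 10 largest TAC rises and falls, the 10 smallest p between days, genes with the same or opposite sign as TAC, and families given whole. Apart from Myc, a fixed gene, 173 genes are named, and 35 of them fall outside that rule and were chosen after their values were seen. Promoters and mature microRNAs are from RefSeq on GRCm38.p6. Alternatives covered scaling, a filter on dim genes, the choice of probe set, the variance model, array weights, the samples in the fit, a replicate block and leaving out each array. Arrays carry no read depth, and precision is limited by 3 arrays per group.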

Additional observations from a re-analysis of the deposited data

Results flagged for a closer look

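The JQ1 difference changed between days 3 and 11 in a test of the change itself for several named genes, and each change is given as day 11 minus day 3. It was 0.67 for Fam174b, 1.37 for Gpr22, 1.0 for Mme, 0.94 for Phkg1, 0.84 for Ppm1k, 0.77 for Ppip5k2, 0.90 for Kcnj3 and 0.59 for Rps6ka5. It was −1.22 for Col8a1, −1.24 for Hbegf and −0.88 for Emp1. The histone gene H2ac4 changed by 1.89, with JQ1 differences of −1.14, 0.75 and −0.84 at days 3, 11 and 28, and at day 11 it was not called (adjusted p = 0.0534).

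Between days 28 and 11 the change, as day 11 minus day 28, was 0.66 for Ttc28, 0.63 for Agtrap, 0.83 for Usp54, 0.87 for Oplah, 0.61 for Atp6v0e2, 0.80 for Tcap, 0.61 for Hlf, 0.61 for Gadd45a, 0.47 for Ppargc1a, 0.72 for Ccn5, 1.82 for Mir126a and 1.59 for H2ac4. It was −0.99 for Spon2, −0.66 for Serpinb9b and −0.71 for Emp1. Ccn5 fell at every day, by 0.60, 0.81 and 1.53 at days 3, 11 and 28.

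Probe sets outside the gene-level comparison also carried differences at day 11. Of 1321 probe sets assigned to several genes, 68 were called, 54 higher and 14 lower. Of 11799 probe sets with no gene, 201 were called, 137 higher and 64 lower. What these probe sets record was not tested.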

How the results depend on the processing

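The 3180 calls at day 11 (1500 higher, 1680 lower) stayed within 1.5 times under most settings. Exceptions were median centring (2334 higher, 1099 lower) and array weights (6933 calls, 3122 higher and 3811 lower). Further exceptions were the fits without JQ1 replicate 1 or 2 (2039 and 2062 calls) and without vehicle replicate 1 or 2 (2107 and 2110 calls). Without 1 array there were 2039 to 2679 calls, 878 to 1264 higher and 1139 to 1415 lower. The 17 changes from day 3 (14 higher, 3 lower) were unstable: 37 (17 lower) after quantile normalization, 46 (31 higher, 15 lower) without dim genes, 5 lower with probe set means, 37 (29 higher, 8 lower) with a variance trend, 726 (344 higher, 382 lower) with array weights and 0 with only the 4 groups fitted by limma (0 higher, 0 lower, 2015 at an unadjusted p under 0.05). Without 1 array they were 0 to 97 (0 to 62 higher, 0 to 35 lower). The 170 changes from day 28 (131 higher, 39 lower) became 68 higher after quantile normalization, 265 (197 higher, 68 lower) with centring, 508 (422 higher, 86 lower) without dim genes, 378 (300 higher, 78 lower) with a trend, 2898 (1431 higher, 1467 lower) with weights and 22 (17 higher, 5 lower) with 4 groups. Without 1 array they were 22 to 1229 (18 to 647 higher, 4 to 582 lower). The cause was not tested. Mki67, not called, turned to 0.01 with centring and ran from −0.16 to 0.03 without 1 array, and Egfl7, not called, turned to −0.01 after quantile normalization or without vehicle replicate 2. With the replicate block, 3004 genes were called at day 11 (1395 higher, 1609 lower), 1 change from day 3 (1 higher, 0 lower) and 61 from day 28 (47 higher, 14 lower). Same-numbered JQ1 and vehicle arrays had correlations of deviations of −0.03, −0.19 and −0.46, so the numbers were not taken to pair samples. Signal over background was not available in the log2 values, so dim genes carry no detection call.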

Other observations

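Some of the most precise rises at day 11 lay outside the lists and were seen at every day. Cnnm4, a magnesium transport mediator, had 7.99, 8.10 and 7.91 in JQ1 TAC hearts, against 6.99, 7.06 and 7.15 in vehicle TAC hearts, with differences of 0.93, 0.93 and 0.80 at days 3, 11 and 28. Glcci1, a glucocorticoid-induced transcript, had differences of 1.04, 0.98 and 0.75. Peg10, an imprinted gene derived from a retrotransposon, had 1.2, 1.08 and 1.10. Gadd45a, a growth arrest and DNA damage gene, had 0.58, 0.87 and 0.26, and its day 11 levels were 8.56, 8.37 and 8.40 in JQ1 TAC hearts, against 7.59, 7.60 and 7.55 in vehicle TAC hearts.

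Single genes outside the lists were among the larger falls. Sting1, the adaptor of cytosolic DNA sensing, had 7.51, 7.37 and 7.42 in JQ1 TAC hearts, against 9.0, 8.66 and 9.01 in vehicle TAC hearts and 8.31, 8.23 and 8.30 in sham vehicle hearts. The JQ1 arrays lay below every sham array. Fcgr4, an activating IgG receptor, had 5.66, 5.62 and 5.74 in JQ1 TAC hearts, against 7.11, 6.94 and 7.15 in vehicle TAC hearts. Tlr13, a receptor for bacterial RNA, fell by 1.49 (SE 0.25). These genes were chosen after their values were seen, and the part of macrophage number in their falls was not tested.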
